A study of Rattus norvegicus with 8 samples.

Results

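The 10 genes described here, Fos, Jun, Junb, Egr1, Egr2, Arc, Nr4a1, Homer1, Ptgs2 and Dusp1, are immediate early genes, and their probes were found by the gene name printed beside each spot of the scanner files. They held 13 of the 15207 probes that are not controls, since Jun, Homer1 and Dusp1 had 2 probes each. All 13 were well above background on 8 of 8 arrays and none was saturated, so all 13 passed the filter on dim probes. The samples were whole hippocampi of rats aged 2 months. Control rats had been given a 5% sucrose vehicle as pups, and PNFLX rats had been given fluoxetine, a blocker of serotonin reuptake, at 10 mg/kg from postnatal day 2 to day 21. Each group had 4 samples, and each sample had 1 single-colour Agilent array. Strain, sex, and the animals behind each sample are not stated in the labels, so the p-values measure only the spread between these samples. The sample descriptions give last days of treatment from day 21 to day 28 that run with sample order, in which controls come first. The protocol's day 21 was followed. If the described days held, length of treatment could not be told apart from group.

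Immediate early genes are transcribed within minutes of a stimulus and need no new protein synthesis for it. In neurons, calcium entry and kinase signalling act on CREB and on serum response factor with its ternary complex partners, which are already bound at these promoters. Some of the genes encode transcription factors, such as the AP-1, EGR and NR4A proteins, and others encode proteins that act at synapses or in signalling. In the hippocampus they are widely used as marks of recent neuronal activity, and their RNA is short-lived.

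The 8 arrays shared 1 slide. Controls filled 1 of its rows and PNFLX filled the other, so an effect of the slide's rows cannot be told apart from one of group. Between 70.5% and 77.9% of probes exceeded background clearly. Signals at the 75th percentile were 706, 880, 764 and 654 in controls 1 to 4 and 923, 941, 873 and 933 in PNFLX 1 to 4. Control 4 stood apart by choroid plexus markers: the median deviation of 7 kept markers of 13 listed was 4.50 on the log2 scale, and their summed level was 3.35 to 46.5 times the 75th percentile signal in controls and 3.27 to 5.75 in PNFLX. PNFLX 1 stood apart by markers of meninges and fibroblasts, being the highest array for 11 of 13, with a median deviation of 1.32, and its choroid plexus markers had 1.15. On PNFLX 4 the median deviation was -0.33 for neuron markers, -0.35 for oligodendrocyte markers, -0.29 for microglia markers and 0.24 for interneuron markers. Of 13 listed markers of hippocampal neurons, 9 were kept. Their log2 differences were above 0 for 5 and below 0 for 4, and the median was 0.03. The 9 summed to 107 to 137 in controls and 95.4 to 109 in PNFLX. Nrgn, the brightest of them, weighs most in these sums. It ran from 5.92 to 6.38 on the log2 scale in controls and from 5.61 to 5.75 in PNFLX. Snap25, the next brightest, overlapped, at 4.80 to 5.01 and 4.67 to 5.28. The sums therefore do not speak for the 9 markers alike. Of other lists, 9 of 10 oligodendrocyte markers were lower in PNFLX, with a median of -0.28. Their summed levels were 78.1 to 106 in controls and 64.4 to 85.1 in PNFLX. The choroid plexus markers were lower in 7 of 7 (median -0.33), but control 4 was the highest array for 7 of 7. Their median deviation was -0.18, -0.07 and 0.05 in controls 1 to 3 and 1.15, -0.05, -0.90 and -0.05 in PNFLX 1 to 4. That lean therefore rests on control 4. Of 13 markers of meninges and fibroblasts, 11 were higher (median 0.27, summed levels 34.9 to 54.6 and 38.5 to 106). Their median deviation was 0.25, -0.03 and -0.0083 on PNFLX 2, 3 and 4, against -0.25 to 0.25 in controls. None of these markers passed limma's test. Of 8 kept endothelium markers, 4 were higher and 4 lower in PNFLX (median 0.10), and 1 passed. The part of all these markers in the differences of Junb, Ptgs2 and Homer1 was not tested. In whole tissue, fewer cells of a type and less RNA per cell cannot be told apart.

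The arrays also differed in how many spots lay far below their probe's usual level. On control 1, 120 of 11498 probes (1.04%) lay over 3 log2 units below their own median over the arrays, as did 1.09% on PNFLX 1, against 15 to 37 probes on each of the other 6 arrays. The array carries 1488 pairs of kept spots with an identical sequence, which show the error between spots. The gap between the spots of a pair had a median of 0.17 on the log2 scale over 11737 pairs and arrays, and exceeded 1 in 8.38% and 3 in 1.25% of them. Control 1 had 47 pairs with a gap over 3 and PNFLX 1 had 37, against 5 to 15 on the other arrays. Control 1 held the lowest value of 3 of the 10 genes.

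**Figure D1:**
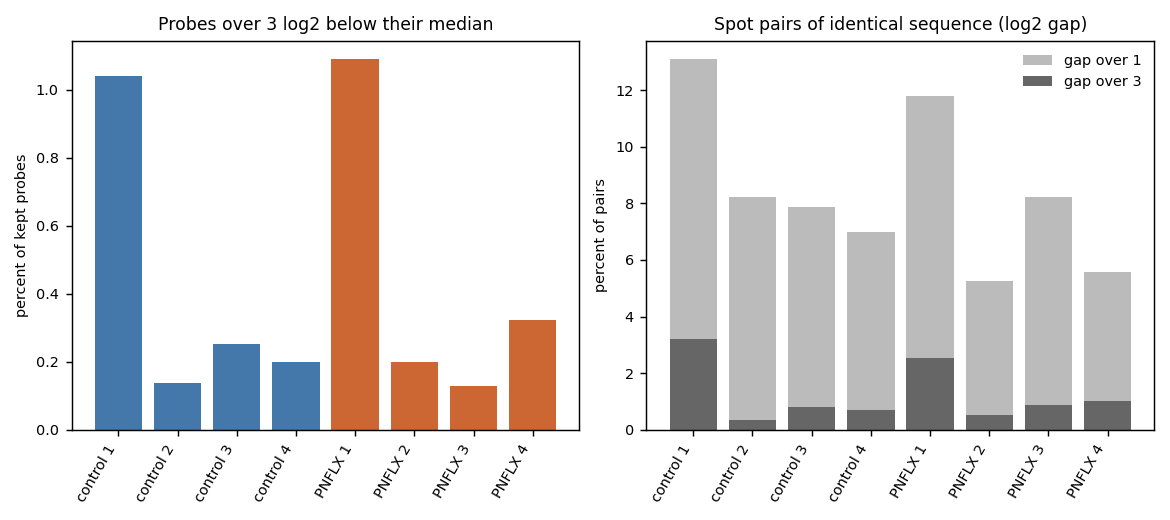
The left panel plots, for each array, the percent of kept probes that lay over 3 log2 units below their own median over the 8 arrays, with controls in blue and PNFLX in orange. The right panel plots the percent of spot pairs of identical sequence with a log2 gap over 1 (light) and over 3 (dark); control 1 and PNFLX 1 are the highest arrays in both panels.

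The probes are 60 bases long, and what each one covers bears on how its value reads. The Fos probe (NM_022197, chr6:109564555-109564614, + strand, rn4), the Junb probe (NM_021836, chr19:24837607-24837666, + strand, rn4) and the Dusp1 probe (NM_053769, chr10:16945391-16945710, + strand, rn4) are shown whole. The capitals at the end of the Junb probe mark a TGA stop codon. The Dusp1 sequence was spotted in rows 87 and 135 of the array. Its span in the files is longer than the 60 bases of the probe, and how the probe lies within it was not determined. For Homer1 the first 30 bases of both probes are shown, since they differ and their values did too. The probe in spot row 7 carries the accession NM_031707 and that in spot row 175 the accession U92079, and the files give no genome position for either. Exon and UTR annotation was not used here.
Fos: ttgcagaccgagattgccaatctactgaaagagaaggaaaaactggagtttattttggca
Junb: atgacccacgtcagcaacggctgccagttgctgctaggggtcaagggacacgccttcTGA
Dusp1: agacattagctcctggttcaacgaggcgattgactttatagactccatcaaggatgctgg
Homer1 row 7: gcctgtgatattgaagagggttcttttcat
Homer1 row 175: aacagaagctcattgacaaactaaagtgac

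None of the 13 probes passed the test between PNFLX and control. With limma over 11600 kept probes and Benjamini-Hochberg adjustment, 0 of 13 were called at 0.05, against 78 of 11600 (0.672%) over the whole array, of which 43 (0.371%) were higher and 35 (0.302%) lower in PNFLX. Leaving out 1 array at a time gave 33 to 50 calls for each array but PNFLX 3, without which there were 104. There were 27 calls after subtraction of spot row and column medians, 13 with the replicate number as a block and 0 with the first and last 5 spot rows left out (1261 at an unadjusted p under 0.05). With the exact permutation test, 0 of the 11 member probes measured on all 8 arrays passed after adjustment. Over the whole array 0 of 11246 passed it, with a smallest adjusted p of 0.279. Its smallest unadjusted p is 0.0286, so it could not set the members apart from other probes. At an unadjusted p under 0.05, limma singled out 3 of 13 probes, against 12.5% of all kept probes. The same 3 probes, Ptgs2, the Homer1 probe in spot row 175 and Junb, were those whose groups did not overlap, against 10.7% of all kept probes. Ptgs2 and the Homer1 probe were higher in PNFLX, as were 4.33% of all kept probes without overlap, and Junb was lower, as were 6.41%. Taking the brightest probe of each gene, 7 genes had a log2 difference above 0 and 3 below, with a median of 0.22, where all kept probes had a median of -0.03 and 45.5% lay above 0. The median of the 10 genes was 0.05 without control 1 (6 above 0, 4 below) and 0.43 without control 4. Values are log2 signals relative to the array's 75th percentile throughout, and differences are PNFLX minus control on the log2 scale. The median difference of all kept probes moved to -0.38 with normexp background correction and to 0.26 with no scaling between arrays.

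**Figure D2:**
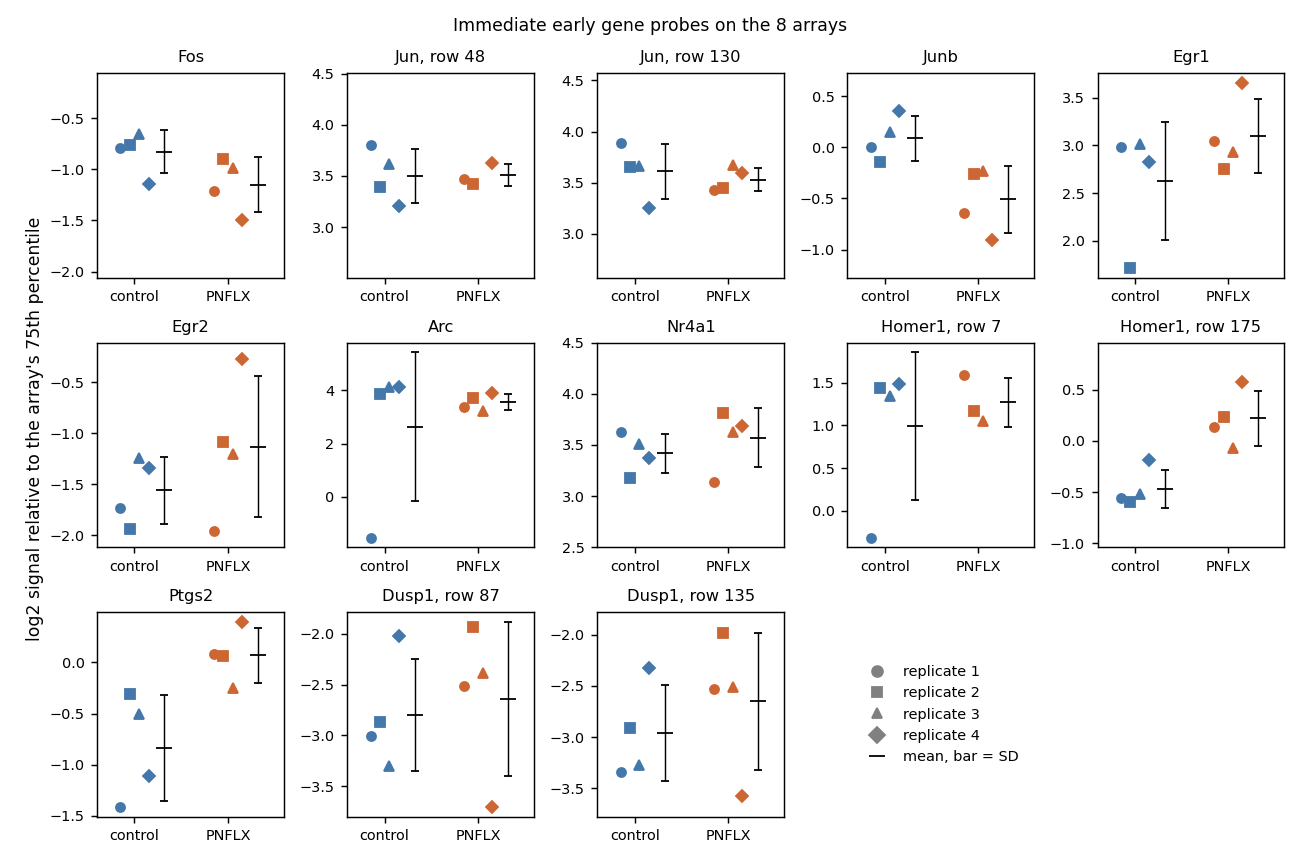
Each panel plots 1 probe of an immediate early gene, with the log2 signal relative to the array's 75th percentile on the y axis, controls in blue, PNFLX in orange, the marker shape giving the replicate number, and the black bar the mean with its SD. The groups stand apart for Junb, Ptgs2 and the Homer1 probe in row 175, and control 1 lies far below the other controls for Arc and for the Homer1 probe in row 7.

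Fos and its partners encode the AP-1 factors, which bind DNA as dimers through leucine zippers. Fos stood at -0.79, -0.76, -0.65 and -1.14 in controls 1 to 4 and at -1.21, -0.90, -0.99 and -1.50 in PNFLX 1 to 4. The PNFLX values were mostly the lower ones, but control 4 lay among them and the groups overlapped. The difference was -0.32 (SE 0.18, limma adjusted p 0.510), with means of -0.83 ± 0.21 and -1.15 ± 0.27 (SD, n = 4 each). It was -0.20 without PNFLX 4 and -0.02 with no scaling between arrays (limma adjusted p 0.968).

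Junb encodes an AP-1 partner that can restrain Jun. Its values were 0.0014, -0.14, 0.15 and 0.36 in controls 1 to 4 and -0.64, -0.26, -0.23 and -0.91 in PNFLX 1 to 4. Every PNFLX sample lay below every control, by a narrow margin between control 2 and PNFLX 3, and PNFLX 4 was the lowest and control 4 the highest. The difference was -0.61 (SE 0.20), which is 1.52-fold lower in PNFLX, with a limma adjusted p of 0.267. The exact permutation p was 0.0286, the smallest that 4 against 4 can give. After subtraction of each array's spot row and column medians the difference was -0.52. It was -0.30 with normexp background correction (limma adjusted p 0.522), where the median of all probes was -0.38, and -0.31 with no scaling between arrays, where that median was 0.26.

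Jun, the core AP-1 subunit, is on the array as 2 spots of identical sequence (NM_021835, chr5:115363990-115364049, - strand, rn4). In spot row 130 it stood at 3.89, 3.65, 3.66 and 3.25 in controls 1 to 4 and at 3.43, 3.45, 3.67 and 3.59 in PNFLX 1 to 4. The PNFLX values lay inside the range of the controls, and the difference was -0.08 (SE 0.16, limma adjusted p 0.861). In spot row 48 the values were 3.80, 3.39, 3.62 and 3.21 in controls and 3.47, 3.42 and 3.63 in PNFLX 1, 2 and 4. The scanner software had flagged that spot on PNFLX 3 as an outlier, at 1.06, and the fit left it out, where its twin read 3.67 on the same array. The difference in spot row 48 was 0.0038 (SE 0.18, limma adjusted p 0.994), and the spots of the pair were 0.03 to 0.26 apart on the 7 arrays where both were read. With the flagged spot kept, the difference in spot row 48 became -0.61. Its direction also turned when control 2, control 4 or PNFLX 4 was left out (-0.04, -0.09 and -0.06), so no direction can be read from it.

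Egr1, a zinc finger factor also known as Zif268, was read by a probe at chr18:27373819-27373878 (NM_012551, + strand, rn4). It stood at 2.98, 1.71, 3.02 and 2.83 in controls 1 to 4 and at 3.05, 2.75, 2.93 and 3.66 in PNFLX 1 to 4. Control 2 was low and PNFLX 4 high, and the other 6 arrays lay between 2.75 and 3.05. The difference was 0.47 (SE 0.33, limma adjusted p 0.588). It was 0.16 without control 2, 0.28 without PNFLX 4, 0.76 with no scaling and 0.87 with normexp. On control 2 the spots within 3 rows and columns of Egr1 had a median deviation of -0.16, and 6 of 35 lay over 1 log2 unit below their own median. The part of those surroundings in the low value was not tested.

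Egr2, the related factor Krox20, was read at chr20:21897740-21897799 (NM_053633, - strand, rn4). Its values were -1.73, -1.94, -1.24 and -1.34 in controls and -1.96, -1.09, -1.20 and -0.27 in PNFLX 1 to 4. PNFLX 1 was the lowest of all arrays and PNFLX 4 the highest, so the PNFLX samples spanned a wider range than the controls and overlapped them. The difference was 0.43 (SE 0.34, limma adjusted p 0.625), and it was 0.14 without PNFLX 4, 0.71 without PNFLX 1 and 0.73 with no scaling. With normexp it was -0.11, where the median of all probes was -0.38.

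Nr4a1 encodes the orphan nuclear receptor Nur77, and its probe lies at chr7:140096879-140096938 (NM_024388, + strand, rn4). It stood at 3.63, 3.18, 3.51 and 3.37 in controls and at 3.14, 3.81, 3.63 and 3.69 in PNFLX 1 to 4. As for Egr2, PNFLX 1 was the lowest array, and the other PNFLX samples were at or above the highest control. The difference was 0.14 (SE 0.18, limma adjusted p 0.768). It was 0.06 without control 2 or PNFLX 2, 0.29 without PNFLX 1, 0.44 with no scaling and 0.47 with normexp.

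Arc encodes a synaptic protein that takes AMPA receptors off the surface and whose RNA travels into dendrites. Its probe lies at chr7:112806255-112806314 (NM_019361, - strand, rn4). The values were -1.55, 3.86, 4.11 and 4.14 in controls 1 to 4 and 3.38, 3.73, 3.24 and 3.89 in PNFLX 1 to 4. Control 1 lay more than 5 log2 units below the other controls, with a processed signal of 241 where the other arrays had 8236 to 13866. The difference was 0.92 (SE 1.20, limma adjusted p 0.772), and without control 1 it was -0.47 (SE 0.20, limma adjusted p 0.443), the opposite direction. A range over the arrays as wide as Arc's, 5.69, was exceeded by few probes, since 99.3% of kept probes had a smaller one. Within 3 rows and columns of the Arc spot on control 1, 3 of 30 neighbours were also over 3 log2 units below their own median, while the median neighbour was 0.23 above. Arc has 1 probe on the array, so no second spot reads it.

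Homer1 encodes a scaffold of the postsynaptic density, and its short form, made by activity, competes with the long forms. The probe in spot row 7 stood at -0.32, 1.44, 1.35 and 1.48 in controls 1 to 4 and at 1.59, 1.17 and 1.05 in PNFLX 1 to 3. The spot on PNFLX 4, at 1.76, was flagged as an outlier and left out of the fit. Control 1 was again the low array, and the difference of 0.28 (SE 0.46, limma adjusted p 0.820) turned to -0.15 (SE 0.19, limma adjusted p 0.790) without it. On control 1, 11 of 33 neighbours of that spot lay over 1 log2 unit below their own median.

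The Homer1 probe in spot row 175 gave another pattern. It stood at -0.56, -0.60, -0.52 and -0.19 in controls 1 to 4 and at 0.14, 0.23, -0.07 and 0.58 in PNFLX 1 to 4. Every PNFLX sample lay above every control. The difference was 0.69 (SE 0.17), which is 1.61-fold higher in PNFLX, with a limma adjusted p of 0.151 and an exact permutation p of 0.0286. It was 0.58 after subtraction of row and column medians and 0.19 after normexp background correction, where the median of all probes was -0.38. With no scaling between arrays it was 0.98 (limma adjusted p 0.0452), where that median was 0.26. Which transcript forms of Homer1 each probe reads was not determined. The correlation of both probes over 7 arrays was 0.36, against 0.97 for the Dusp1 spots and 0.87 for the Jun spots, which have identical sequences.

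Ptgs2 encodes cyclooxygenase-2, the inducible enzyme of prostaglandin synthesis, and was read at chr13:64448537-64448596 (NM_017232, + strand, rn4). Its values were -1.42, -0.31, -0.50 and -1.11 in controls 1 to 4 and 0.08, 0.06, -0.25 and 0.40 in PNFLX 1 to 4. Every PNFLX sample lay above every control, by a narrow margin between control 2 and PNFLX 3. The difference was 0.91 (SE 0.27), which is 1.88-fold higher in PNFLX, with a limma adjusted p of 0.225 and an exact permutation p of 0.0286. The probe lies in spot row 6 of 192, close to an end of the array. The 261 kept probes within 2 spot rows had a median difference of 0.17, and 10 of 38 neighbours on control 1 lay over 1 log2 unit below their own median. After subtraction of row and column medians the difference was 0.76 (SE 0.24).

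Dusp1 encodes a phosphatase that switches off MAP kinases. In spot row 87 it stood at -3.01, -2.87, -3.30 and -2.02 in controls and at -2.51, -1.93, -2.39 and -3.71 in PNFLX 1 to 4. In spot row 135 the same sequence stood at -3.34, -2.91, -3.27 and -2.32 in controls and at -2.53, -1.98, -2.51 and -3.58 in PNFLX. Both spots put PNFLX 4 lowest and PNFLX 2 highest, and they were 0.01 to 0.33 apart on any array. PNFLX therefore spanned a wider range than control, and the differences were 0.16 (SE 0.41, limma adjusted p 0.889) and 0.31 (SE 0.36, limma adjusted p 0.745). With normexp background correction both were below 0, at -0.43 and -0.37, where the median of all probes was -0.38.

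**Figure D3:**
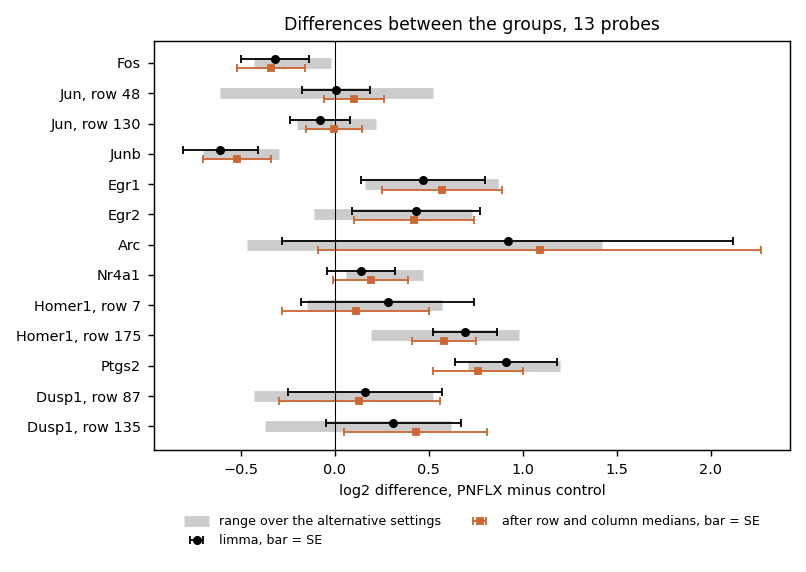
The x axis is the log2 difference, PNFLX minus control, of each of the 13 probes, with the limma value and its SE in black, the value after subtraction of row and column medians in orange and the range over the alternative settings in grey. The grey ranges of Fos, Junb, Egr1, Nr4a1, Ptgs2 and the Homer1 probe in row 175 stay on 1 side of 0, and those of the other 7 probes cross it.

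The genes did not rise and fall as 1 block from array to array. PNFLX 4 held the highest value of Egr1, Egr2 and Ptgs2 and the lowest of Fos, Junb and Dusp1. It was also the array with neuron markers at -0.33 and oligodendrocyte markers at -0.35, and the part of these in its values was not tested. Control 1 held the lowest value of Arc, Homer1 and Ptgs2 and the highest of Jun, reading the brightest probe of each gene. The median deviation of the 10 genes from their own medians lay between -0.23 on PNFLX 1 and 0.10 on PNFLX 4. No array had more than 6 of the genes above their own median or fewer than 4.

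Over the 45 pairs of genes, the Pearson correlations ran from -0.81 to 0.96 with a median of -0.09, and 18 were positive. An r of 0.7 or more was found in 2 of 45 pairs (4.44%), against 5.97% of all pairs of kept probes, and an r of -0.7 or less in 2 of 45 (4.44%), against 3.81%. Exact permutation tests gave 3 pairs with an unadjusted p under 0.05 and 0 after Benjamini-Hochberg adjustment over the 45, the smallest adjusted p being 0.499. After the group means were subtracted, 3 pairs had an r of 0.7 or more, against 7.70% of all pairs of kept probes, and 1 had an r of -0.7 or less, against 5.03%. With Spearman's rho, 4 pairs had an exact permutation p under 0.05 and 0 passed adjustment. Each array's scaling and cell makeup are shared by all genes read on it.

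Junb and Ptgs2 went in opposite directions, with r = -0.81 (exact permutation p 0.0156) and rho = -0.93 (exact permutation p 0.00223, 0.100 after adjustment). Both genes also had groups that did not overlap, and within the groups, after the group means were subtracted, r was -0.51 (exact permutation p 0.181). Without PNFLX 4 and control 4, the arrays farthest from the median of Junb, r was -0.64.

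Arc and Homer1 had r = 0.96 over the 7 arrays read for both (exact permutation p 0.0353) but rho = 0.61 (exact permutation p 0.167). The relation rests on control 1: r was 0.34 without that array and -0.27 without control 1 and PNFLX 3. Centring on the group means left r at 0.96 (exact permutation p 0.104).

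Egr2 and Nr4a1 had r = 0.71 (exact permutation p 0.0473, adjusted 0.499) and rho = 0.83 (exact permutation p 0.0154, adjusted 0.268). Their r was 0.67 after centring (exact permutation p 0.175), 0.67 without PNFLX 4 and PNFLX 1, and 0.61 to 0.82 when any 1 array was left out. Egr1 and Egr2 had r = 0.66 (exact permutation p 0.0962) and rho = 0.14 (exact permutation p 0.752). Without control 2 and PNFLX 4, that r was -0.67, so the positive value rests on those arrays.

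Fos and Junb had r = 0.67 (exact permutation p 0.0686, adjusted 0.499) and rho = 0.60 (exact permutation p 0.132), with 0.40 after centring (exact permutation p 0.389). Without PNFLX 4 and control 3 it was 0.17. Without control 4, the array with the high choroid plexus markers, r was 0.98, and it was then the single pair of the 45 to pass, with an exact permutation p of 0.0357 after adjustment. The part of those markers in the value was not tested. Fos and Egr1, both read as marks of activity, had r = -0.61 (exact permutation p 0.111, adjusted 0.499), rho = -0.48 (exact permutation p 0.243), -0.47 after centring and -0.58 without PNFLX 4 and control 3.

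The second Homer1 probe, in spot row 175, was set against the 10 genes after its values had been seen. By Pearson's r its largest relation was with Fos, with r = -0.85 (exact permutation p 0.00848, adjusted over 10 relations 0.0848) and rho = -0.76 (exact permutation p 0.0368). That r was -0.81 after centring (exact permutation p 0.0434, adjusted 0.434) and -0.66 without PNFLX 4 and control 2. By Spearman's rho the largest was with Ptgs2, with rho = 0.81 (exact permutation p 0.0218, adjusted 0.153) and r = 0.73 (exact permutation p 0.0401, adjusted 0.134). That r was 0.79 without the same arrays and 0.18 after centring (exact permutation p 0.653).

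**Figure D4:**
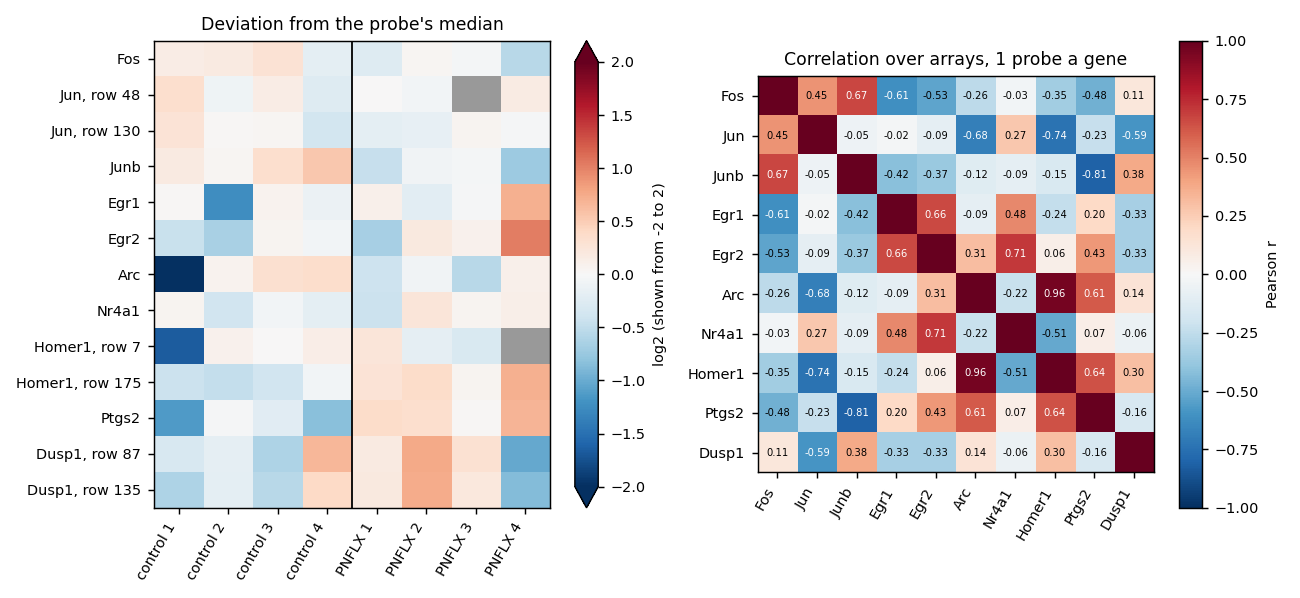
The left panel shows each probe's log2 deviation from its own median on each of the 8 arrays, red above and blue below, with colours ending at -2 and 2 and grey for the 2 spots left out by their flag. The right panel shows Pearson's r over the arrays between the brightest probes of the 10 genes; Arc and Homer1 reach 0.96 and Junb and Ptgs2 -0.81.

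The probes of other genes whose pattern was most like Fos, Egr1 and Arc were ranked by Pearson's r over 8 arrays among 10653 kept probes with a value on all 8 arrays, as a description. For Fos they included Slc25a1, the mitochondrial citrate carrier, at 0.961, then Pik3r2 at 0.956, Dlgap4 at 0.945 and Nudt14 at 0.933, and r stayed at 0.88 to 0.94 without PNFLX 4. For Egr1 they were Rps13, a ribosomal protein, at 0.992, Sarnp at 0.980, Exosc8 at 0.978, Pard3 at 0.977 and Ptpn1 at 0.976. The Rps13 and Ptpn1 spots sit in spot rows 34 and 33, beside Egr1 in spot row 36, and within 1 spot column of it. Without control 2 the r of the 5 was 0.92 to 0.99. For Arc they were Jak1 at 0.994, the proteasome subunit Psma4 at 0.992, and Mecr, Gadd45b and Psma7 at 0.991 each. The Jak1 spot is in spot row 19 and column 76, and the Arc spot in spot row 23 and column 77. Without control 1 the r of these Arc-like probes was between 0.57 and 0.81. The Gadd45b probe among them had a group difference of 1.13 (SE 1.01). The brighter probe of Gadd45b had 0.0075 (SE 0.32) and ran from -0.46 to 0.57 in controls. None of these probes passed limma's test between the groups.

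Relatives and partners of the 10 genes were taken from a list of 26, of which 22 were kept. With limma 0 passed in either direction, 8 lay above 0 and 14 below, the median was -0.12 (0.01 after row and column medians were subtracted), and at an unadjusted p under 0.05 there were 3 (13.6%, against 12.5% of all kept probes). The groups did not overlap for 3 of 22 (13.6%, against 10.7%), namely Nr4a3, Dusp8 and, named after its values were seen, Homer2. Nr4a3, a nuclear receptor of the Nr4a1 family, ran from 1.36 to 2.00 in controls and from 2.12 to 2.46 in PNFLX, a difference of 0.54 (SE 0.17, limma adjusted p 0.257). The other 3 probes of Nr4a3 gave 0.32, 0.06 and -0.12. Dusp8, a phosphatase of JNK and p38 kinases, ran from 4.38 to 5.14 in controls and from 2.00 to 4.33 in PNFLX, a difference of -1.30 (SE 0.53, limma adjusted p 0.379). Fosl2, a Fos relative, had -0.93 (SE 0.38, limma adjusted p 0.362), but it lies in spot row 191, where nearby rows had a median of -1.01, and its difference was 0.33 after row and column medians were subtracted. Dusp6, a phosphatase of ERK, had 0.41 (SE 0.21, limma adjusted p 0.464).

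A list of 54 other activity-induced genes had 46 kept, of which 21 lay above 0 and 25 below, with a median of -0.02 (0.04 after that subtraction). With limma 0 passed, with 4 (8.70%, against 12.5% of all kept probes) at an unadjusted p under 0.05. The groups did not overlap for 5 (10.9%, against 10.7%): Plat and Ifrd1 were higher, and Maff, Id1 and, named after its values were seen, Cebpb were lower. Plat, tissue plasminogen activator, had 0.52 (SE 0.16, limma adjusted p 0.229), and Ifrd1 0.46 (SE 0.15, limma adjusted p 0.272). Maff, a small Maf factor, had -0.77 (SE 0.21, limma adjusted p 0.185). It passed the filter through 3 controls and 1 PNFLX array well above background, so neither the size nor the lack of overlap can be relied on. Id1, an inhibitor of helix-loop-helix factors, ran from 0.09 to 0.71 in controls and from -6.15 to -0.30 in PNFLX, a difference of -2.88 (SE 1.09, limma adjusted p 0.335).

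Of 45 listed upstream kinases, channels and transcription factors, 39 were kept, with 23 above 0, 16 below and a median of 0.04. With limma 0 passed, with 2 (5.13%, against 12.5% of all kept probes) at an unadjusted p under 0.05, and the groups did not overlap for 1 (2.56%, against 10.7%), Elk4. Elk4, a ternary complex factor, had -1.30 (SE 0.39, limma adjusted p 0.227), and its other probe gave -0.07 (SE 0.43). It passed the filter through 3 controls and 1 PNFLX array well above background, so neither the size nor the lack of overlap can be relied on. Srf, serum response factor itself, ran from -4.45 to -2.11 in controls and from -2.71 to -1.17 in PNFLX, a difference of 1.24 (SE 0.52, limma adjusted p 0.380), and the groups overlapped. Prkaca, a catalytic subunit of protein kinase A, had -0.39 (SE 0.22, limma adjusted p 0.514), and Elk3 had 0.26 (SE 0.17, limma adjusted p 0.557).

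The promoters of 7 of the 10 genes were matched in a RefSeq table of assembly GRCr8 (Junb, Egr1, Egr2, Nr4a1, Homer1, Ptgs2 and Dusp1) and searched on both strands over the 250 bases before the start. The CRE, which CREB binds, was searched as TGACGTCA and its first part alone as TGACG, which overlaps the CRE, and serum response factor's site is named here as the CArG box alone. TGACGTCA stood in the promoter of Dusp1 alone (1.59% of 33469 promoters), and TGACG in those of Junb, Egr1, Egr2, Nr4a1 and Dusp1 (18.2% of all). A CArG box stood in those of Egr1 and Egr2 (1.50% of all), and the EGR site GCGNGGGCG in that of Nr4a1 (4.29%). The AP-1 site TGANTCA (6.34%) and the NBRE of NR4A receptors, AAAGGTCA (1.24%), stood in none of the 7. TATAAA stood in those of Junb and, on the opposite strand, Homer1 (12.9%). These are matches of letters and not bound sites. Egr1 and Egr2 are shown because they share a CArG box at the same distance from the start, 83 to 74 bases before it, and Junb and Ptgs2 because they were the pair of opposite pattern whose groups stood apart. Capitals mark CArG boxes and TATAAA, and the Ptgs2 window holds no match to the motifs searched.
Egr1 (GRCr8 chr18:26736828-26737077, + strand): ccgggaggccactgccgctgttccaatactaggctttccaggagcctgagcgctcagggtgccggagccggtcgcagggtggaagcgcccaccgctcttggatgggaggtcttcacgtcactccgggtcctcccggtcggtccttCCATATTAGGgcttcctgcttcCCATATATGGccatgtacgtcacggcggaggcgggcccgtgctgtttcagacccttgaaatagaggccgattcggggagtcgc
Egr2 (GRCr8 chr20:21054442-21054691, - strand): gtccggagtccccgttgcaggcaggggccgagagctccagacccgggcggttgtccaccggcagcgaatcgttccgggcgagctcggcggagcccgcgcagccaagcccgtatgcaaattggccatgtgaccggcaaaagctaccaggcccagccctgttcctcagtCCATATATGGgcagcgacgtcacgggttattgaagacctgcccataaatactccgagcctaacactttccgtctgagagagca
Junb (GRCr8 chr19:40080876-40081125, + strand): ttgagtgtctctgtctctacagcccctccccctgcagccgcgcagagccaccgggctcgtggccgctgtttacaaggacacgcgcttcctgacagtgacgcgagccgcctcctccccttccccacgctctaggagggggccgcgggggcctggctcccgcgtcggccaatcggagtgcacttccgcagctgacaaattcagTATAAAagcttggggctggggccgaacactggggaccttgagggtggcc
Ptgs2 (GRCr8 chr13:64713813-64714062, + strand): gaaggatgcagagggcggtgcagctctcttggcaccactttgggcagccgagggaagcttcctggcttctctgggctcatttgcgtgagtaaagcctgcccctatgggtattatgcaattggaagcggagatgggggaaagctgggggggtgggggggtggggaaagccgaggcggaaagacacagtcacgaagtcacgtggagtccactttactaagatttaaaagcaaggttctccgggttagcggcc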

How the data were processed

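Hippocampal RNA was labelled with Cy3, per the labels' protocols. The deposited intensity values are processed signals from Agilent Feature Extraction 10.5.1.1, per the file headers, background-subtracted and detrended but not normalized between arrays. A second table, deposited as log2 values, equals the scanner signals on a log2 scale after scaling to the 75th percentile and centring per probe, within 0.00241. Its column medians were 0.06, -0.05, 0.04 and 0.04 in controls 1 to 4 and -0.04, -0.07, 0.10 and -0.13 in PNFLX 1 to 4.

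Here, processed signals were taken as log2 and scaled to the 75th percentile of 15207 probes on their own array. Spots flagged as outliers (521) did not enter. A probe was kept if it was well above background on 4 or more of 8 arrays (11600 probes). Groups were compared per probe with limma 3.58.1 in R 4.3.3 (group as the single term, Benjamini-Hochberg over 11600, threshold 0.05). They were also compared with two-sided exact permutation tests in R. The exact permutation tests of correlations were run in Python 3.11.15. For gene lists and correlations the brightest probe of a gene was read. Positions are the files', on rn4, and RefSeq GRCr8 tables gave current names (14317 probes) and promoters. In simulated data made from the 11600 probes of PNFLX against control, 5.97% of probes changed 1.5-fold, 43.3% changed 2-fold and 71.2% changed 4-fold were called.

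The genes and lists were chosen with earlier results of these data known. Named were all member probes, the 4 kept genes of smallest p in each other list, any gene past the threshold, and the 5 probes most like Fos, Egr1 and Arc, of which 1 is not reported here. Alternatives changed the background correction, scaling, filter, spot rows, flags, replicate block and arrays used.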

Additional observations from a re-analysis of the deposited data

Results flagged for a closer look

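In 3 of 24 groups of 4 values, 1 sample lay apart from the rest by Dixon's test at its 95% level, which chance gives in about 1 of 20 groups. Arc stood at -1.55 on control 1, where the other controls lay between 3.86 and 4.14. The Homer1 probe in spot row 7 stood at -0.32 on control 1, where the other controls lay between 1.35 and 1.48. Egr1 stood at 1.71 on control 2, where the other controls lay between 2.83 and 3.02. The cause was not tested.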

How the results depend on the processing

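With limma, 78 of 11600 probes differed in the main setting (43 higher, 35 lower). The count was 50 with normexp background correction (14 higher, 36 lower), 143 with no scaling (120 higher, 23 lower), 46 with no filter, 47 with probes well above background on all 8 arrays, 27 after subtraction of row and column medians, and 33 to 104 with 1 array left out. Without the first and last 5 spot rows it was 0 (smallest adjusted p 0.0952, and 1261 at an unadjusted p under 0.05). The median of all probes shifted to -0.38 with normexp and to 0.26 with no scaling. Of the members, 0 passed, except 1 with no scaling, Homer1 in spot row 175 at 0.98. Of the 45 pairs, 0 passed in the main setting and 0 to 1 with 1 array left out.

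Samples of the same number deviated together with correlations of 0.01 to 0.09, none over 0.1. The labels state no pairing, so the main fit used none. With the replicate block 13 probes passed, against 78 in the main setting, and no member's call changed. For 3 of 4 controls the best correlation was with the PNFLX sample of their own number. Whether the numbers pair the samples was not settled.

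Of 268 member differences under an alternative, 251 kept their direction and side of the threshold and 16 reversed. Jun in spot row 48 gave -0.61 with flagged spots kept and in the authors' table, -0.04 without control 2, -0.09 without control 4, -0.06 without PNFLX 4 and -0.02 with spots of identical sequence averaged, a setting added after seeing the data. Jun in spot row 130 gave 0.20 with normexp, 0.22 with no scaling and 0.01 without control 1. Dusp1 gave -0.43 (spot row 87) and -0.37 (spot row 135) with normexp, and in spot row 87 -0.004 without control 3 and -0.07 without PNFLX 2. Egr2 gave -0.11 with normexp. Without control 1, Homer1 in spot row 7 gave -0.15 and Arc -0.47. With 1 array left out in turn, Homer1 in spot row 7 ran up to 0.45, Arc up to 1.42, Dusp1 in spot row 87 up to 0.52 and Jun in spot row 130 down to -0.20. The cause was not tested. Probes dim on some arrays, such as Maff, Elk4 and Id1, are limited by background.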
